A study of Mus musculus with 9 samples.

Results

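The genes described here are 10 genes whose products make up granules, alarm proteins and surface receptors of neutrophils: S100a8, S100a9, Lcn2, Ltf, Ngp, Mmp8, Trem1, Clec4d, Csf3r and Cxcr2. They were taken by name from a table of read counts for 49510 genes, in which each of the 10 names had 1 row. The libraries are RNA of regulatory T cells (Tregs), the T cells that restrain immune responses, from Foxp3-GFP mice, in which green fluorescent protein reports Foxp3, the transcription factor of that lineage. All mice were 8 weeks old and all had undergone cardiac ischemia/reperfusion injury, a stop and return of blood flow, 3 days before. Cells of the injured heart, of the mediastinal lymph node (MLN) that drains it and of the spleen gave 3 libraries each, 9 in all, and no group without injury was analysed here. Cells had been enriched with magnetic beads and sorted by flow cytometry, and the very small RNA amounts were amplified as cDNA. Whether the 3 libraries per organ stand for separate animals is not said in the labels, so p-values measure the spread among these libraries, which may be partly technical.

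Neutrophils are short-lived white blood cells made in the bone marrow, and they are among the first cells to enter an injured heart. They carry their weapons ready-made in granules, which are filled in sequence as the cell matures. S100a8 and S100a9 form calprotectin, a pair of calcium- and metal-binding proteins that fills much of the neutrophil cytosol and acts as an alarm signal outside the cell. Lcn2, Ltf, Ngp and Mmp8 encode granule proteins: a binder of bacterial iron carriers, the iron binder lactoferrin, a cathelicidin-related granule protein and a collagenase. Trem1 and Clec4d are activating receptors of myeloid cells, Csf3r is the receptor for the growth factor G-CSF, and Cxcr2 is the chemokine receptor that draws neutrophils into tissue. Monocytes and macrophages also make several of these products, among them S100a8, S100a9, Trem1 and Clec4d.

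Totals ranged from 156194012 to 267520538 counts per library. Levels are given in CPM, which is the count of a gene divided by a library's total and set to a common depth, after scaling by trimmed mean of M-values (TMM). A library with no count allows up to 3 counts, which is 0.0104 to 0.0193 CPM, and these floors cover counting error only. The 8 T cell and Treg markers checked (Cd3d, Cd3e, Cd3g, Cd4, Foxp3, Il2ra, Ctla4 and Ikzf2) had counts in all 3 organs, with a summed level of 1830 to 2540 CPM in heart libraries, 3486 to 5450 CPM in MLN libraries and 3663 to 4726 CPM in spleen libraries. Foxp3 itself was at 8.77, 38.0 and 0.24 CPM in heart 1, 2 and 3, at 42.4, 41.8 and 46.3 CPM in MLN 1, 2 and 3, and at 31.2, 32.6 and 187 CPM in spleen 1, 2 and 3. Foxp3 was thus close to 0 in the library labelled heart 3, whereas the other Treg markers Ctla4, Il2ra and Ikzf2 were at 315, 161 and 350 CPM there, against 363, 267 and 293 CPM in heart 1 and 552, 169 and 229 CPM in heart 2. Between organs, Ikzf2 had means of 291 CPM in the heart, 1676 CPM in the MLN and 1446 CPM in the spleen. It was lower in the heart by edgeR's quasi-likelihood test, at an adjusted p of 0.0344 against the MLN and 0.0492 against the spleen. Il2ra averaged 199, 553 and 349 CPM and Ctla4 410, 718 and 705 CPM in the same order, without an adjusted p below 0.05. Folds of the 10 genes that leaving out heart 3 moved by over 1.5 times are also given without it. For the lower bound of Ltf against the MLN, only the heart mean is given without heart 3. Heart 2, MLN 3 and spleen 3 had the highest TMM factors of their organs, at 1.11, 1.17 and 1.24.

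Summed over the 10 genes, RNA was high in every heart library and close to absent from MLN libraries, while Ltf and Ngp each had no count in 1 heart library. Together they took 0.244 ± 0.186% of counts in heart libraries, 0.000339 ± 0.000358% in MLN libraries and 0.00301 ± 0.00221% in spleen libraries (SD, n = 3 each). Their summed level was 1767, 1274 and 5548 CPM in heart 1, 2 and 3, against 1.60, 7.46 and 0.935 CPM in MLN 1, 2 and 3 and 17.9, 16.6 and 44.9 CPM in spleen 1, 2 and 3. All 3 heart libraries lay above all 6 lymphoid libraries, and without heart 3 the heart mean was 1520 CPM in place of 2863 CPM. Of the 30 values that 10 genes give in 3 libraries, 2 were without a count in the heart, 21 in the MLN and 8 in the spleen. In these bulk libraries fewer cells of a type and less RNA per cell cannot be told apart.

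**Figure D1:**
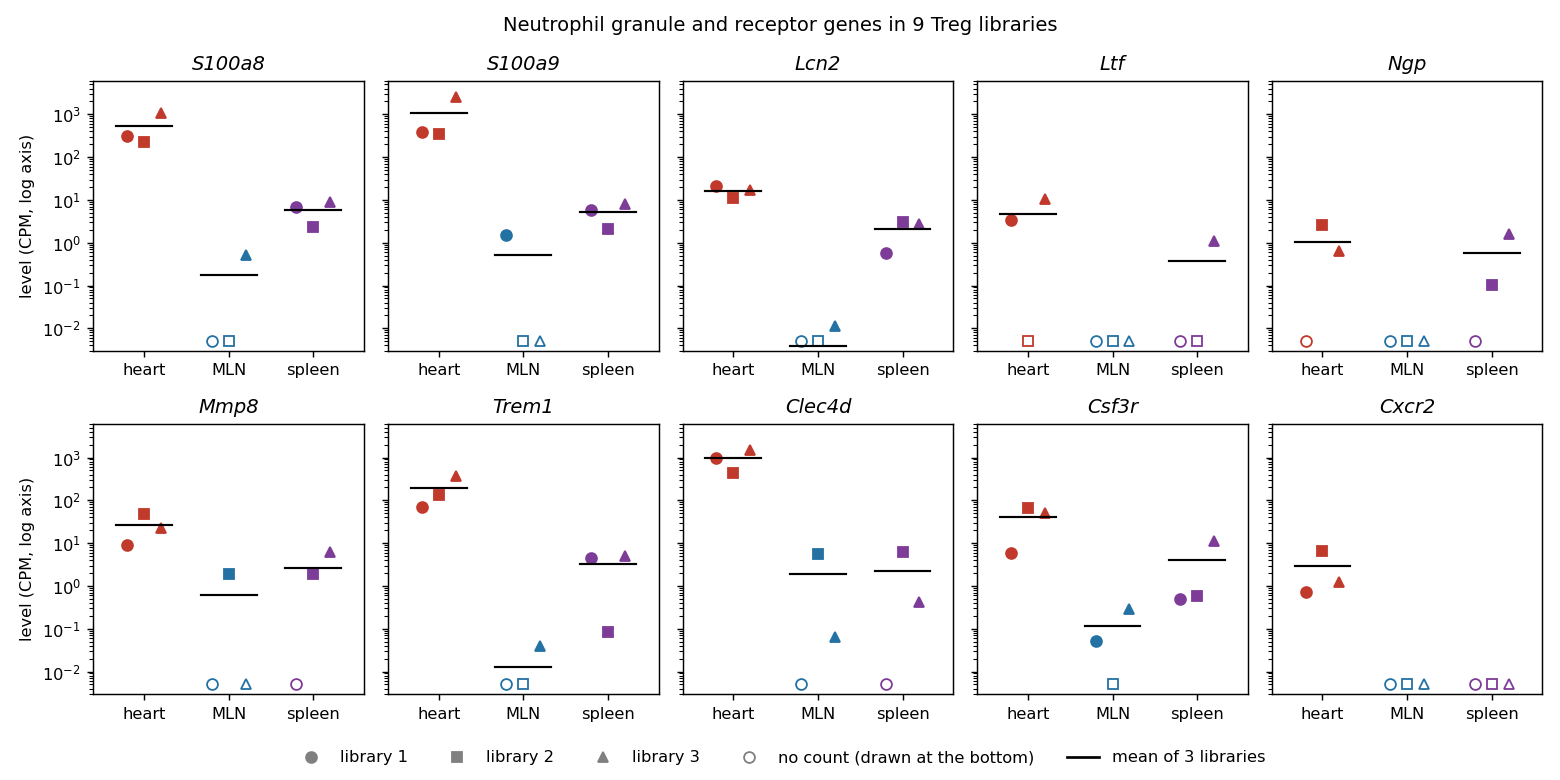
Level of each of the 10 genes in CPM (log axis) in heart, MLN and spleen libraries, with a symbol per library, a line at the mean of 3 libraries and open symbols at the bottom for libraries with no count. Heart libraries hold the highest mean for every gene, and the MLN has 21 of 30 values without a count.

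All 10 genes passed the filter on low counts and were among 16609 genes tested, some only through the organ where they were high. Against the MLN, Trem1 and Lcn2 rose in the heart and 8 of the 10 genes missed the threshold (2 of 10 called, where 1.38% of all genes tested were called in either direction, by edgeR's quasi-likelihood test and Benjamini-Hochberg adjustment). At an unadjusted p below 0.05 they numbered 9 of 10, all but Mmp8 (15.5% of all genes), with DESeq2 8 (13.2%) and with limma-voom 6 (8.02%). With heart and MLN fitted alone they numbered 2 of the 8 that passed the filter there (3.57%). Against the spleen 0 of 10 were called by edgeR, where 0.789% of all genes were. There 5 of 10 had an unadjusted p below 0.05, where 13.6% of all genes had one, DESeq2 called 5 (11.3% of all genes) limma-voom 4 (6.87%) and a fit of heart and spleen alone 2 (1.92%), all higher in the heart. Between the MLN and the spleen edgeR called 0 of 10 genes, at a background of 0.0% of all genes, while 5 of 10 had an unadjusted p below 0.05 (5.75% of all genes). In that comparison DESeq2 called 3 of 10 genes, Lcn2, Trem1 and Ltf, as lower in the MLN (4.73% of all genes in either direction), and limma-voom called 0 of 10 (0.0181% of all genes). The call of Ltf rested on spleen 3, the only MLN or spleen library with an Ltf count. Its DESeq2 log2 change of -22.91 is no measured size, since the MLN had no count. DESeq2 gave no adjusted p for S100a9 in any comparison.

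Ranges over libraries were compared without a model. Every heart library lay above every MLN library for 8 of 10 genes, all but Ltf and Ngp, where 14.9% of all genes tested showed this. Every heart library lay above every spleen library for 7 of 10 genes, all but Csf3r, Ltf and Ngp, where 12.4% of all genes did. Without heart 3 these counts were again 8 of 10 and 7 of 10, at backgrounds of 20.0% and 16.5%. Every MLN library lay below every spleen library for 5 of 10 genes, S100a8, S100a9, Lcn2, Trem1 and Csf3r, where 4.56% of all genes did. The median log2 change of the 10 genes was 11.29 for the heart against the MLN, or 8.75 with genes that had no MLN count at their lower bound, beside 0.12 for all genes tested. It was 4.81 for the heart against the spleen, beside 0.02 for all genes, and -5.10 for the MLN against the spleen, or -4.93 with bounds, beside 0 for all genes. The comparisons share libraries, so they are not independent of each other.

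**Figure D2:**
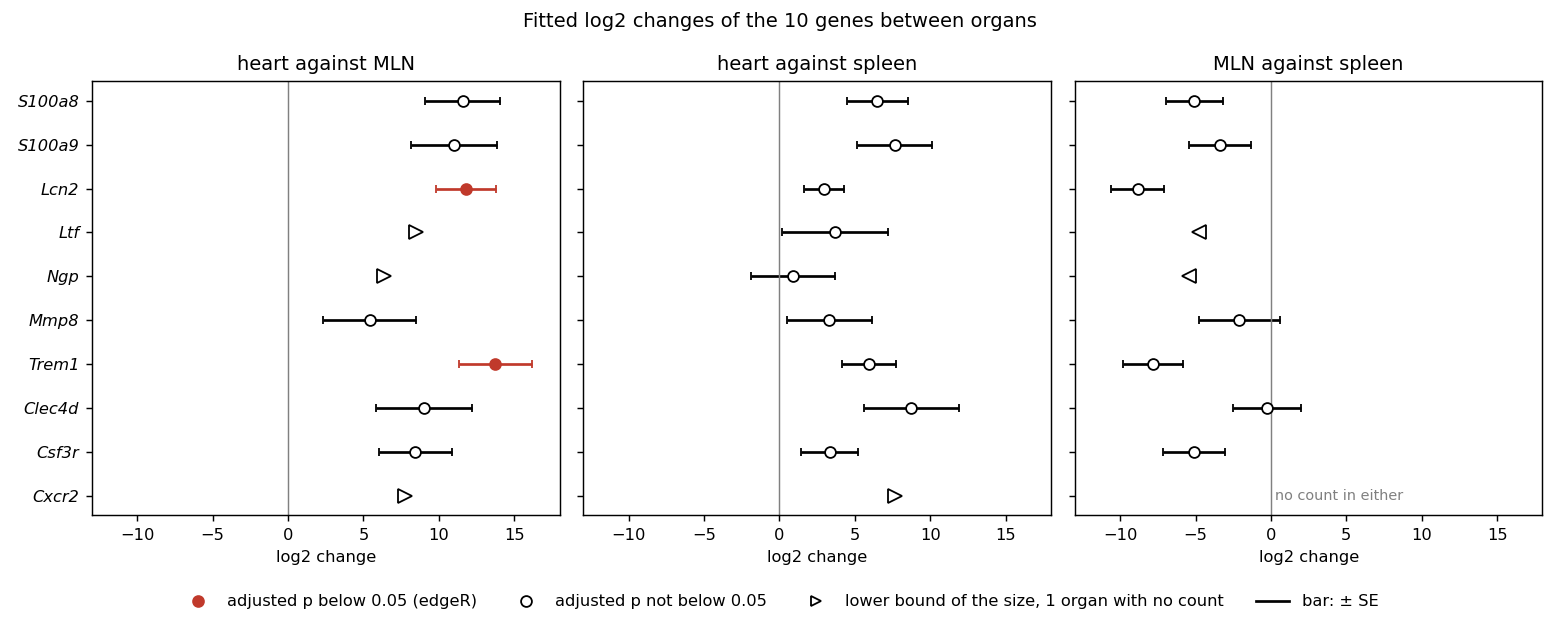
Log2 change of each gene (points, with bars of 1 SE from the edgeR fit) for the heart against the MLN, the heart against the spleen and the MLN against the spleen. Red points passed an adjusted p of 0.05, which holds for Lcn2 and Trem1 in the heart against the MLN, and open triangles are lower bounds where 1 organ had no count.

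The promoters of 5 of the genes are shown because these are the 3 most abundant in the heart (S100a9, S100a8 and Clec4d) and the 2 called against the MLN (Trem1 and Lcn2). All 10 genes were found in RefSeq's promoter windows on GRCm38.p6, each running from 250 bases before to 50 bases after the gene's start. C/EBP proteins and PU.1 are the transcription factors best known for switching on granulocyte and myeloid genes. A pair of motifs was therefore searched on both strands, TTGCNNAA for C/EBP and GAGGAA for PU.1, and matches, read on either strand, are in capitals; the motifs did not overlap in any of the 10 windows.
S100a8 promoter (chr3:90668821-90669120, plus strand): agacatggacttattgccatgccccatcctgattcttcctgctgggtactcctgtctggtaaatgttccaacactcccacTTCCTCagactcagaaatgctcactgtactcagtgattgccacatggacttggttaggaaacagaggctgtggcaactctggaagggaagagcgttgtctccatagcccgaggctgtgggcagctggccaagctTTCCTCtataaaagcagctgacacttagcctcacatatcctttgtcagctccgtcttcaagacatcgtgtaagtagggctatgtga
S100a9 promoter (chr3:90695672-90695971, minus strand): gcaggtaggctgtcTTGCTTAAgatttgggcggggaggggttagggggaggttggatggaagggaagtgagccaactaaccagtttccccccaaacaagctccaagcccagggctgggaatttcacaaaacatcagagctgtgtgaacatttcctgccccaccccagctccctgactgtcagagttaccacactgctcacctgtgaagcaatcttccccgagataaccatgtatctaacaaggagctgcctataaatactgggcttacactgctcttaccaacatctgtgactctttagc
Clec4d promoter (chr6:123261857-123262156, plus strand): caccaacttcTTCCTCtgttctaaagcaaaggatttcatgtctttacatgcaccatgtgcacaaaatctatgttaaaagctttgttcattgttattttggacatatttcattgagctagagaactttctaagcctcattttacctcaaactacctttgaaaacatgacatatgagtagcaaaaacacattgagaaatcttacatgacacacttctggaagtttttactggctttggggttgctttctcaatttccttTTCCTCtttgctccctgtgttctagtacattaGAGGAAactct
Trem1 promoter (chr17:48232489-48232788, plus strand): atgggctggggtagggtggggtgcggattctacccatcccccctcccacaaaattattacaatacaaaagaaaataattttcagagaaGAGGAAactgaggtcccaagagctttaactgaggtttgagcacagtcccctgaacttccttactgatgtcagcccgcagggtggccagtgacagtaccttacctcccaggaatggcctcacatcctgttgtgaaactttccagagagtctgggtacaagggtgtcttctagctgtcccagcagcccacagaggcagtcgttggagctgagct
Lcn2 promoter (chr2:32387690-32387989, minus strand): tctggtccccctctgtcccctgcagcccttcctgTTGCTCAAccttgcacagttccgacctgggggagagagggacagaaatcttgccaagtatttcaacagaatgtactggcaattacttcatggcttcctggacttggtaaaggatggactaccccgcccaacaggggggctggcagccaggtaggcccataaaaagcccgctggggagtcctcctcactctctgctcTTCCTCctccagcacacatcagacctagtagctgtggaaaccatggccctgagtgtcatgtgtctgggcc
The PU.1 letters stood in 8 of the 10 windows, all but those of S100a9 and Ngp, where 28.3% of 32851 windows of the same length held them. The C/EBP letters stood in 5 of 10, those of S100a9, Lcn2, Mmp8, Ltf and Ngp, where 10.8% of windows held them. S100a8 held the PU.1 letters at 170 and 36 bases before its start and no C/EBP match. A match is a description of letters and not of binding, which was not measured.

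S100a8 and S100a9, the calprotectin genes, were 2 of the 3 most abundant members in the heart and had the highest levels of the 10 per length of RNA. S100a8 (ENSMUSG00000056054, chromosome 3, 90668978 to 90670035, mm10, plus strand) was at 315, 226 and 1071 CPM in heart 1, 2 and 3, against 0, 0 and 0.526 CPM in MLN 1, 2 and 3 and 6.72, 2.38 and 8.79 CPM in spleen 1, 2 and 3. Heart 3 was the highest, the lowest heart library was over every lymphoid one, and the MLN value rested on 1 library. It averaged 537 ± 464 CPM over heart libraries and 0.175 ± 0.303 CPM over MLN libraries (SD, n = 3 each), a log2 change of 11.57 (SE 2.50, edgeR adjusted p = 0.0646). Against the spleen, at 5.96 ± 3.27 CPM, the change was 6.49 (SE 2.04, edgeR adjusted p = 0.175), a 90.1-fold difference of means that was 45.4-fold without heart 3. The gap to the spleen had an adjusted p of 0.00557 with DESeq2, 0.0127 with limma-voom and 0.0356 with both organs fitted alone, and the call thus depends on the tool. Leaving out MLN 3, the one MLN library with S100a8 counts, brought the adjusted p to 0.0407 against the MLN and 0.0494 against the spleen. The 3066-fold difference of means to the MLN was 1544-fold without heart 3.

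S100a9 (ENSMUSG00000056071, chromosome 3, 90692632 to 90695721, minus strand) lies on the same chromosome as its partner. It was at 378, 344 and 2477 CPM in heart 1, 2 and 3, against 1.55, 0 and 0 CPM in the MLN and 5.67, 2.14 and 8.17 CPM in the spleen. Heart and lymphoid ranges did not overlap, and heart 3 alone held more than both other heart libraries together. The heart mean of 1066 ± 1220 CPM was 200.2-fold that of the spleen, at 5.33 ± 3.03 CPM (log2 7.64, SE 2.49, edgeR adjusted p = 0.194), and 67.8-fold without heart 3. Against the MLN, at 0.517 ± 0.895 CPM, the log2 change was 11.01 (SE 2.84, edgeR adjusted p = 0.0996), and the fold of means was 2063, or 698 without heart 3. The only MLN library with S100a9 counts, MLN 1, had no S100a8 count, and the only one with S100a8 counts, MLN 3, had no S100a9 count. Where both were counted, reads of S100a9 over reads of S100a8 were 1.2, 1.52 and 2.31 in heart 1, 2 and 3, against 0.843, 0.897 and 0.930 in spleen 1, 2 and 3. The heart libraries thus lay above the spleen libraries in this ratio, which was not tested further.

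Among granule genes Lcn2, the siderophore binder lipocalin 2, was the most even between heart libraries. Lcn2 (ENSMUSG00000026822, chromosome 2, 32384633 to 32388252, minus strand) was at 21.0, 10.8 and 16.95 CPM in heart 1, 2 and 3, against 0, 0 and 0.0116 CPM in the MLN and 0.591, 3.03 and 2.69 CPM in the spleen. Every heart library lay above every other library, and the whole MLN group held 3 counts against 10200 in the heart. It rose in the heart against the MLN (log2 11.79, SE 1.97, edgeR adjusted p = 0.0363), with 3605 times the share of summed counts and an exact counting interval from 1233 to 17490. That interval covers counting error only and not the spread between libraries, and all 3 MLN counts came from MLN 3. Against the spleen, at 2.10 ± 1.32 CPM, the heart mean of 16.3 ± 5.13 CPM was 7.73-fold (log2 2.95, SE 1.34, edgeR adjusted p = 0.388, and adjusted p = 0.00733 with DESeq2). The call against the MLN ended when any 1 of the 6 heart and MLN libraries was left out, at adjusted p-values from 0.0589 to 0.113.

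Mmp8, the collagenase of secondary granules, was counted in all 3 heart libraries. Mmp8 (ENSMUSG00000005800, chromosome 9, 7558456 to 7568485, plus strand) was at 9.29, 46.85 and 22.9 CPM in heart 1, 2 and 3, against 0, 1.86 and 0 CPM in the MLN and 0, 1.885 and 6.10 CPM in the spleen. The heart range lay above both others, with heart 2 the highest. The heart mean of 26.3 ± 19.0 CPM was 9.89-fold the spleen mean of 2.66 ± 3.12 CPM (log2 3.31, SE 2.81, edgeR adjusted p = 0.795) and 42.6-fold the MLN mean of 0.618 ± 1.07 CPM (log2 5.41, SE 3.10, edgeR adjusted p = 0.48). Without heart 2 the heart mean was 16.1 CPM, without spleen 3 the log2 change against the spleen was 4.804, and no alternative called Mmp8 in any of the 3 comparisons.

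Ltf and Ngp, products of the same granule stage in maturing marrow neutrophils, were low and patchy in the heart. Ltf (ENSMUSG00000032496, chromosome 9, 111019271 to 111042767, plus strand), which encodes lactoferrin, was at 3.44, 0 and 10.75 CPM in heart 1, 2 and 3, with 0, 0 and 1.095 CPM in spleen 1, 2 and 3 and no MLN count. Ngp (ENSMUSG00000032484, chromosome 9, 110419747 to 110423012, plus strand), neutrophilic granule protein, was at 0, 2.54 and 0.638 CPM in heart 1, 2 and 3, with 0, 0.104 and 1.62 CPM in spleen 1, 2 and 3 and no MLN count. Heart and spleen ranges overlapped for both genes, and heart 2, which had the most Ngp, had no Ltf. Ltf averaged 4.73 ± 5.49 CPM over heart libraries and 0.365 ± 0.632 CPM over spleen libraries (log2 3.69, SE 3.51, edgeR adjusted p = 0.841). Without heart 3 the heart mean of Ltf was 1.72 CPM, 4.71-fold the spleen mean in place of 12.95-fold, and without spleen 3 no spleen count of Ltf was left. Ngp averaged 1.06 ± 1.32 CPM over heart libraries and 0.575 ± 0.907 CPM over spleen libraries (log2 0.88, SE 2.78, edgeR adjusted p = 0.982), and the sign turned without heart 2 (log2 -0.85). Against the MLN the heart means were at least 359-fold higher for Ltf and at least 80.5-fold higher for Ngp, with the MLN at its floor of 3 counts per library (edgeR adjusted p = 0.291 and 0.275). DESeq2 called both (adjusted p = 3.34e-10 for Ltf and 0.0352 for Ngp), and limma-voom called neither (0.292 and 0.282). The DESeq2 log2 change of Ltf, 26.64, is no measured size, since the MLN had no count, and heart 2 had none either.

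Of the receptors, Clec4d was the most abundant. Clec4d (ENSMUSG00000030144, chromosome 6, 123262111 to 123275265, plus strand), a C-type lectin that senses mycobacterial glycolipids together with its relative Clec4e, was at 963.5, 435 and 1524 CPM in heart 1, 2 and 3, against 0, 5.61 and 0.0657 CPM in the MLN and 0, 6.37 and 0.415 CPM in the spleen. Heart and lymphoid ranges were far apart, while lymphoid libraries of number 2 held nearly all lymphoid counts. The heart mean of 974 ± 545 CPM was 430.7-fold the spleen mean of 2.26 ± 3.57 CPM (log2 8.75, SE 3.14, edgeR adjusted p = 0.25) and 515-fold the MLN mean of 1.89 ± 3.22 CPM (log2 9.01, SE 3.17, edgeR adjusted p = 0.211). DESeq2 (adjusted p = 0.00311 against the spleen and 0.00178 against the MLN) and limma-voom (0.0369 and 0.0252) called both differences. The log2 change against the spleen was 12.20 without spleen 2, and that against the MLN was 14.80 without MLN 2. Without heart 3 the heart mean was 699 CPM, 309-fold that of the spleen. The MLN and the spleen differed by -0.26 on the log2 scale (SE 2.25, edgeR adjusted p = 1), and the sign turned in 3 alternatives.

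Trem1, an amplifier of inflammatory signals on neutrophils and monocytes, had the largest fitted difference between heart and MLN among members with a count in both. Trem1 (ENSMUSG00000042265, chromosome 17, 48232768 to 48246924, plus strand) was at 70.0, 136 and 373 CPM in heart 1, 2 and 3, against 0, 0 and 0.03865 CPM in the MLN and 4.435, 0.0850 and 5.01 CPM in the spleen. No heart library came near a lymphoid one, and the MLN held 10 counts in all. It rose in the heart against the MLN (log2 13.75, SE 2.41, edgeR adjusted p = 0.0403), a 14980-fold difference of means that was 7992-fold without heart 3. Leaving out any 1 heart or MLN library ended that call, at adjusted p-values from 0.0836 to 0.126, as did leaving out spleen 1 (0.0572) or spleen 3 (0.0508). Against the spleen, at 3.18 ± 2.69 CPM, the heart mean of 193 ± 159 CPM was 60.8-fold (log2 5.93, SE 1.77, edgeR adjusted p = 0.151), and 32.4-fold without heart 3. Gene AC241601.2 overlaps Trem1 on the opposite strand, and reads of both cannot be told apart where the counting did not use strand.

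Csf3r (ENSMUSG00000028859, chromosome 4, 126024550 to 126044440, plus strand), the G-CSF receptor needed for neutrophil production and survival, had 1 heart library within the range of the spleen. It was at 5.87, 65.5 and 50.6 CPM in heart 1, 2 and 3, against 0.0528, 0 and 0.294 CPM in the MLN and 0.482, 0.581 and 11.1 CPM in the spleen. Heart 1 lay below spleen 3, and all heart libraries lay above all MLN libraries. Means were 40.6 ± 31.0 CPM in the heart, 0.116 ± 0.157 CPM in the MLN and 4.04 ± 6.08 CPM in the spleen. The log2 change was 8.45 against the MLN (SE 2.40, edgeR adjusted p = 0.122, and adjusted p = 1.03e-05 with DESeq2) and 3.33 against the spleen (SE 1.90, edgeR adjusted p = 0.545). Spleen 3 held most of the spleen counts, and without it the change against the spleen was 6.26 (edgeR adjusted p = 0.297).

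Cxcr2 (ENSMUSG00000026180, chromosome 1, 74153989 to 74161246, plus strand), the receptor for neutrophil-attracting CXC chemokines, had counts only in the heart. It was at 0.712, 6.73 and 1.22 CPM in heart 1, 2 and 3, while MLN and spleen libraries had no count. The heart mean of 2.89 ± 3.34 CPM was at least 219-fold higher than the MLN floor and at least 198-fold higher than the spleen floor, taken at 3 counts per library (edgeR adjusted p = 0.118 and 0.133). DESeq2 and limma-voom called both differences (adjusted p = 0.000152 and 0.00352 against the MLN, 0.000209 and 0.00413 against the spleen). Heart 2 held most of it, and without that library the heart mean was 0.9645 CPM. Cxcr2 was low for a receptor of this group, at 0.947 ± 1.09 CPM per kilobase of exon in the heart, against 64.4 ± 53.2 for Trem1.

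Per kilobase of exon, which makes levels of different genes comparable, the genes were ordered by their heart means. S100a9 (2043 ± 2340 CPM per kilobase), S100a8 (774 ± 669) and Clec4d (609 ± 341) came first and overlapped within their spread. Trem1 followed alone at 64.4 ± 53.2 CPM per kilobase. Csf3r (11.3 ± 8.59), Mmp8 (10.9 ± 7.84) and Lcn2 (6.20 ± 1.95) did not differ beyond their spread. Ltf (1.37 ± 1.59), Cxcr2 (0.947 ± 1.09) and Ngp (0.868 ± 1.08) came last, and each had an SD above its mean. These were not separate from the genes before them. Csf3r in heart 1 was at 1.625 CPM per kilobase, below Ltf in heart 3 (3.115), Cxcr2 in heart 2 (2.207) and Ngp in heart 2 (2.081). Members did not peak in the same heart library: S100a8, S100a9, Clec4d, Trem1 and Ltf, 5 genes, were highest in heart 3, while Csf3r, Cxcr2, Mmp8 and Ngp, 4 genes, were highest in heart 2, and Lcn2 in heart 1.

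Other markers of the neutrophil lineage were split between present and missing. Of 12 such markers that are not among the 10 genes, 6 passed the filter, and edgeR called 0 of these in any comparison, although 5 had an unadjusted p below 0.05 in the heart against the MLN and 4 in the heart against the spleen, where 15.5% and 13.6% of all genes tested had one. Retnlg, Stfa2l1 and Mrgpra2b passed the filter only through the heart, so these counts are partly set by the filter. The same holds for genes of the lists below that passed it without a lymphoid count. Retnlg, a secreted resistin-like protein of neutrophils, was at 69.5, 3.47 and 234 CPM in heart 1, 2 and 3, while MLN and spleen libraries had none (at least 7772-fold and 7007-fold higher, edgeR adjusted p = 0.0795 and 0.0892). Stfa2l1, a cystatin of neutrophils, was at 40.1, 8.17 and 149 CPM, and Mrgpra2b, a G protein-coupled receptor, at 10.9, 23.6 and 142 CPM in heart 1, 2 and 3, again with no lymphoid count. Without heart 3 the heart means were 36.5 CPM for Retnlg, 24.1 CPM for Stfa2l1 and 17.2 CPM for Mrgpra2b, and the bounds for Retnlg were at least 2770-fold over the MLN and 2500-fold over the spleen. Ly6g, the surface protein used to gate mouse neutrophils, was at 4.82, 0 and 26.5 CPM in heart 1, 2 and 3, and it did not pass the filter. Genes of the first granules, which are transcribed early in the marrow, differed among themselves. Elane, neutrophil elastase, had no count in any of the 9 libraries, and Mpo, myeloperoxidase, was at 0.897 CPM in heart 1 alone. Ctsg, cathepsin G, was at 16.1, 53.4 and 0 CPM in heart 1, 2 and 3 and had no lymphoid count, and Prtn3, proteinase 3, was at 0.0897, 3.84 and 2.64 CPM in heart 1, 2 and 3, against 0.985 CPM in spleen 3 as its one lymphoid value. Ctsg and Prtn3 were picked for mention after their values were seen. Camp, the cathelicidin of secondary granules, had no count in the heart or the MLN and was at 2.80 and 0.767 CPM in spleen 1 and 3. The summed level of the 12 markers ranged from 259 to 901 CPM in the heart, where it was highest in heart 3. It ranged from 15.01 to 25.3 CPM in the MLN and from 23.3 to 72.3 CPM in the spleen. Il1r2, 1 of the 12, was at 178, 199 and 324 CPM in heart 1, 2 and 3, where the sums were 369, 259 and 901 CPM. It averaged 19.6 of 20.2 CPM in the MLN and 28.9 of 39.99 CPM in the spleen. The sum in heart 2 and the mean lymphoid sums were thus mostly Il1r2, whose cell of origin was not tested.

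Macrophage and monocyte markers were, in sum, also higher in every heart library than in any lymphoid one. The 14 macrophage and monocyte markers checked, of which 13 were counted under 1 identifier, summed to 3542 to 4941 CPM in heart libraries, 120 to 178 CPM in MLN libraries and 554.5 to 1260 CPM in spleen libraries, and all 13 had counts in each organ. In the heart 5 of the 13 rose against the MLN, Cd68, Cd14, Ccr2, C1qa and C1qb, and 2 against the spleen, Cd68 and Ccr2 (edgeR adjusted p = 0.0492 and 0.0398 against the spleen), where 1.38% and 0.789% of all genes were called. Mast cell and basophil markers summed to 8250 and 5080 CPM in heart 1 and 2 but to 12.6 CPM in heart 3, the library with the most S100a8, S100a9, Clec4d and Trem1, where 7 of the 9 markers, the mast cell protease Cpa3 among them, had no count. They summed to 6.44 to 64.3 CPM in the MLN and 0.619 to 41.3 CPM in the spleen. B cell markers summed to 0.379 to 16.3 CPM in the heart, 325 to 1881 CPM in the MLN and 942 to 1204 CPM in the spleen. The part of macrophage, monocyte or neutrophil RNA in the levels of the 10 genes was not tested.

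**Figure D3:**
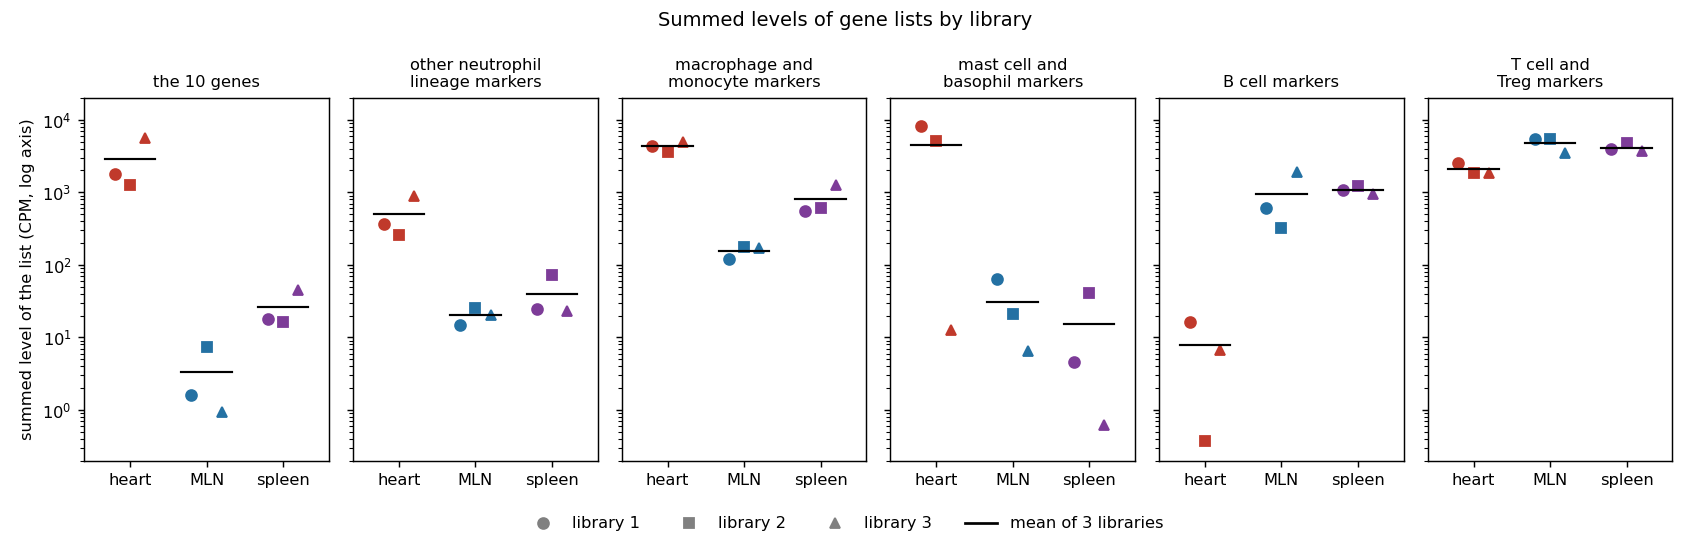
Summed level in CPM (log axis) of the 10 genes and of marker lists of neutrophils, macrophages and monocytes, mast cells and basophils, B cells, and T cells and Tregs in each library, with a line at the mean of 3. The 10 genes and the macrophage markers are highest in the heart, while T cell and Treg markers, at 1830 to 2540 CPM in the heart, are lower there than in both lymphoid organs.

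Many ligands and signalling partners of the receptors were also higher in the heart libraries, but not all. Of 16 listed partners, 15 passed the filter; in the heart 3 rose against the MLN and 1 against the spleen, where 1.38% and 0.789% of all genes were called, and 10 had every heart library above every MLN library and 10 above every spleen library (14.9% and 12.4% of all genes). Cxcl2, a ligand of Cxcr2, rose in both comparisons: it was at 535, 563 and 907 CPM in heart 1, 2 and 3, against 2.35, 0.333 and 2.49 CPM in the MLN and 4.24, 20.1 and 11 CPM in the spleen (388-fold, edgeR adjusted p = 0.0193, and 56.7-fold, edgeR adjusted p = 0.0398). Cxcl1, another ligand, was at 657, 114 and 458 CPM in the heart, against 0.0336, 0.297 and 0.0155 CPM in the MLN and 1.53, 0.0283 and 0.0276 CPM in spleen libraries (edgeR adjusted p = 0.0589 and 0.0913). Cxcl1 and Cxcl2 were thus at 114 CPM or more in the heart libraries, where their receptor Cxcr2 was at 0.712 to 6.73 CPM. Cxcl5 and the G-CSF gene Csf3 had no count in any lymphoid library, and in heart 1, 2 and 3 they were at 38.7, 4.97 and 0.805 CPM and at 2.42, 4.13 and 0.0859 CPM. Mif, another listed partner, averaged 238 CPM in the heart, 276 CPM in the MLN and 257 CPM in the spleen. Its edgeR adjusted p was 0.925 for the heart against the MLN and 0.991 against the spleen. Card9, also listed, was at 1.44, 7.81 and 0 CPM in heart 1, 2 and 3, and its heart range overlapped both lymphoid ranges.

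Fcer1g, the signalling adaptor that Clec4d and Clec4e use, and Tyrobp, the adaptor of Trem1, rose in the heart against the MLN. Fcer1g was at 4330, 958 and 3860 CPM in heart 1, 2 and 3, against 154, 158 and 155 CPM in the MLN (19.6-fold, edgeR adjusted p = 0.023) and 478, 602 and 346 CPM in the spleen (6.42-fold, edgeR adjusted p = 0.0704). Tyrobp was at 2590, 858 and 3630 CPM in the heart, against 121, 115 and 92.7 CPM in the MLN (21.5-fold, edgeR adjusted p = 0.0215) and 301, 546 and 297 CPM in the spleen (6.19-fold, edgeR adjusted p = 0.0704). Both adaptors serve many receptors and were well above 0 in lymphoid libraries that lacked Trem1 or Clec4d. Clec4e, the receptor partner of Clec4d, was at 74.0, 88.7 and 246 CPM in the heart, against 0, 0 and 0.414 CPM in the MLN and 0.649, 2.50 and 2.32 CPM in spleen libraries (edgeR adjusted p = 0.0837 and 0.195). Pglyrp1, a granule protein that can act as a ligand of Trem1, did not follow the pattern, at 64.1, 43.1 and 59.6 CPM in the heart, against 94.5, 106 and 68.5 CPM in the MLN and 94.9, 226 and 38.2 CPM in the spleen. Tlr4, which senses calprotectin, was at 49.0, 8.94 and 82.1 CPM in the heart, against 7.06, 6.13 and 3.34 CPM in the MLN and 0, 0 and 8.46 CPM in spleen libraries (edgeR adjusted p = 0.666 and 0.608), so that every heart library lay above every lymphoid one. Of other receptors for the released proteins, Ager reached at most 1.41 CPM, and the Lcn2 receptor gene Lrp2 had no count in any library. Slc22a17, another listed partner, reached at most 0.168 CPM in the heart, 0.504 CPM in the MLN and 0.983 CPM in the spleen.

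**Figure D4:**
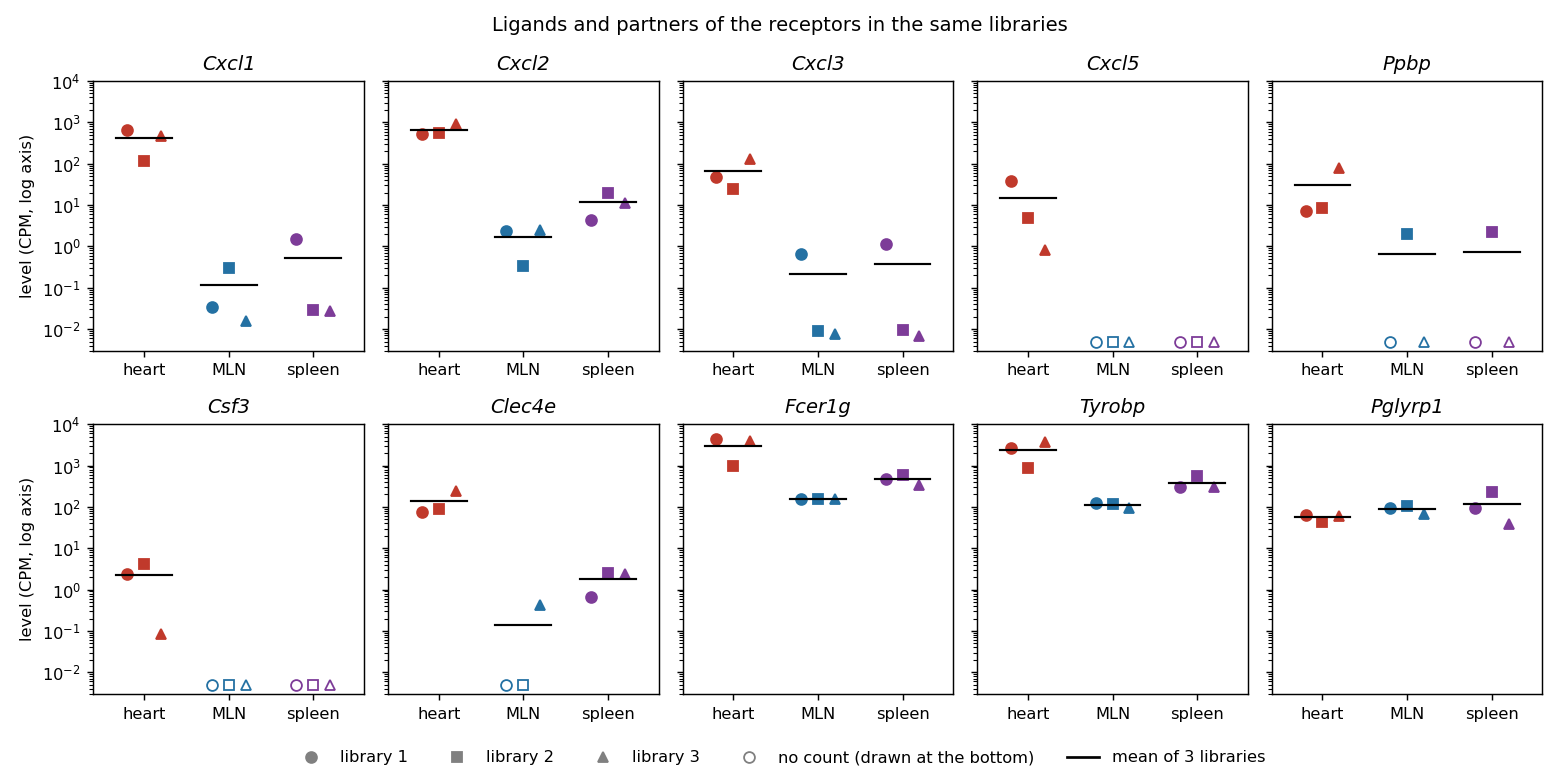
Level in CPM (log axis) of 10 ligands and partners of the receptors in heart, MLN and spleen libraries, with a symbol per library, a line at the mean of 3 and open symbols at the bottom for no count. Cxcl2 lies between 535 and 907 CPM in the heart libraries and reaches at most 20.1 CPM elsewhere, while Pglyrp1 has overlapping heart and spleen levels.

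The pattern over the 9 libraries was compared with 7334 other genes of at least 10 CPM on average. The mean standardized log2 level of the 10 genes served as the profile, with which single members had a Pearson r of 0.717 (Ngp) to 0.94 (Trem1). Each member is part of this profile, which raises its r. Between pairs of members r ranged from 0.339 (Ltf with Ngp) to 0.965 (S100a8 with Trem1). The 8 genes most like it were Sparc (r = 0.976), Bcl2l11 (0.971), Tgfbi (0.969), Lpl (0.969), Pla2g7 (0.967), Fgf7 (0.967), Clec4n (0.958) and C1qa (0.955), over 9 libraries that share organ and depth. Sparc encodes a matrix protein, C1qa a complement subunit and Clec4n the lectin Dectin-2. The nearest, Sparc, was at 996 ± 361 CPM in the heart, 0 CPM in the MLN and 2.30 ± 3.80 CPM in the spleen.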

How the data were processed

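Per the labels' protocols, double-sorted cells were lysed and cDNA was amplified with an ultra-low input SMARTer kit. The authors deposited raw read counts per gene, 1 column per library, and all 9 columns were used. The submitters' processing notes name CASAVA 1.8.2, HISAT2, HTSeq 0.6.0 and build mm10; strand option and annotation release: not given in the sources used here. Coordinates and exon lengths came from GENCODE vM21 (GRCm38), which held 49412 of the 49510 identifiers.

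The deposited counts were tested with edgeR 4.0.16 in R 4.3.3: filterByExpr (minimum count 10, minimum total 15), TMM scaling, and a quasi-likelihood fit of organ over all 9 libraries (6 residual degrees of freedom), two-sided, with Benjamini-Hochberg adjustment over 16609 genes, called below 0.05. SEs come from the F statistic and are not given where 1 organ had no count. The median biological coefficient of variation was 102%. The fit was tested on simulated data. No libraries agreed within sampling noise. Alternatives were other scalings and filters, DESeq2 1.42.0, limma-voom 3.58.1, fits of 2 organs, a replicate block and left-out libraries; counts of separate ranges and heart means without 1 library (members and 3 lineage markers) were chosen after seeing the data. Members and lists were chosen with earlier results of these data known. Named genes are the 10 members, lineage markers and partners, called genes and at most the 4 most abundant of other lists, and the 8 genes most alike in pattern. Itgam has 2 identifiers and was not counted in its lists. Floors and the counting interval of Lcn2 cover counting error only, since PCR copies are not independent molecules.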

Additional observations from a re-analysis of the deposited data

How the results depend on the processing

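All 545 recomputed changes of single members were compared with those reported: 494 kept their direction and their side of the threshold, 3 had no adjusted p (S100a9 with DESeq2), 18 lost a call, 26 gained one and 4 turned sign. The 4 log2 changes were of Ngp in the heart against the spleen without heart 2 (-0.85; -0.85 to 4.33 over libraries left out), and of Clec4d in the MLN against the spleen without MLN 1 (0.33), MLN 3 (0.31) or spleen 2 (3.16; -6.05 to 3.16 over libraries left out), none called. Members called numbered 5 with DESeq2, 4 with limma-voom and 2 with both organs fitted alone (S100a8 and S100a9) in the heart against the spleen, and 0 to 1 when 1 library was left out. In the heart against the MLN they numbered 8 with DESeq2, 6 with limma-voom, 0 with the replicate block, 0 without the 3 libraries that stand apart (heart 2, MLN 3, spleen 3) and 0 to 2 when 1 library was left out; in the MLN against the spleen, 3 with DESeq2 and 0 when 1 library was left out. Members with separate ranges numbered 7 to 8, 8 to 9 and 5 to 7 in the heart against the spleen, the heart against the MLN and the MLN against the spleen when 1 library was left out.

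Over all genes, calls in the heart against the spleen numbered 131, and 1885 with DESeq2, 1141 with limma-voom, 292 with both organs fitted alone, 0 with the replicate block, 3 without the libraries that stand apart and 0 to 122 when 1 library was left out. In the heart against the MLN they numbered 230 (183 higher, 47 lower), and 2199, 1332, 548, 0, 4 and 0 to 249 under the same settings; by library totals only, 139 were higher and 64 lower. In the MLN against the spleen they numbered 0 with edgeR (955 at an unadjusted p below 0.05), 785 with DESeq2, 3 with limma-voom and 0 when 1 library was left out. The causes were not tested. Under library totals alone the median log2 change of all genes was -0.243, in place of 0.024, in the heart against the spleen and -0.103, in place of 0.122, against the MLN, which turned no member's sign. Levels showed no pairing by replicate number: deviations of same-numbered libraries correlated at -0.127 to 0.114, those of other pairs at -0.142 to 0.239, and not every library correlated best with its own number. With 3 libraries an organ, this cannot settle whether same-numbered libraries share an animal, which the labels do not say. With 3 libraries an organ, edgeR called no difference of Ngp, Ltf or Mmp8, while DESeq2 called Ltf and Ngp in the heart against the MLN and Ltf in the MLN against the spleen. The last of these calls rested on spleen 3 alone.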

Other observations

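Beside granules and receptors, cytosolic and secreted products of neutrophils were high in the heart. Of 16 such genes listed, 12 passed the filter; 1, Il1b, rose in the heart against the MLN (1.38% of all genes were called) and 0 were called by edgeR against the spleen, where 10 had an unadjusted p below 0.05 (13.6% of all genes tested), while 12 had every heart library above every MLN library and 10 above every spleen library, where 14.9% and 12.4% of all genes did. Il1b, the cytokine interleukin-1 beta, was at 1020, 1530 and 2320 CPM in heart 1, 2 and 3, against 0, 1.39 and 0.383 CPM in the MLN (log2 11.42, SE 2.01, edgeR adjusted p = 0.0407) and 24.1, 31.1 and 9.10 CPM in the spleen. S100a11 and S100a6, relatives of S100a8 that many cells make, were the most abundant of the list, and they were also abundant in the MLN and the spleen, at means of 973 and 1073 CPM for S100a11.

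Of 22 other granule genes listed, 14 passed the filter and 1 rose in the heart against the MLN, where 1.38% of all genes were called: Lyz2, a lysozyme shared with macrophages (12.4-fold, edgeR adjusted p = 0.0383). Of 22 other surface receptors, 19 passed and Clec4n rose in the heart against the MLN (60.3-fold, edgeR adjusted p = 0.0193). Of 10 transcription factors of granulocyte formation, 9 passed and 0 were called by edgeR in any comparison; 2 had an unadjusted p below 0.05 in the heart against the MLN, where 15.5% of all genes had one, and 0 in both other comparisons (13.6% of all genes in the heart against the spleen and 5.75% in the MLN against the spleen). Cebpe, which drives secondary granule genes, had no count in any of the 9 libraries.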
